A study of Mus musculus with 24 samples.

Results

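The proximal tubule is the part of the nephron that takes back most of the filtered sugar, phosphate, amino acids and protein. A list of 34 of its transport and metabolism genes was followed in whole mouse kidneys at embryonic day 18.5, shortly before birth. The list was set by gene name and no measured value enters its rule, although it was drawn up with earlier results of these data known. All 34 genes were found among the 54393 genes of the deposited count tables. It covers receptors of protein uptake, sodium-coupled transporters of phosphate, sugar, lactate and amino acids, anion transporters, genes of glucose output, enzymes, and Hnf4a, a transcription factor of the tubule. The kidneys came from mice made to study intercalated cells, the acid-base cells of the collecting duct, which lies at the other end of the nephron. The groups were 3 Dmrt2 knockouts, 6 knockouts of Hmx3 and Hmx2 together, and 3 libraries labelled as knockouts of Dmrt2, Hmx3 and Hmx2 (the triple knockout), each with as many control littermates of its line. The labels give the age and genotype, and a strain named only after the targeted genes. They describe neither the alleles nor a Cre driver, so a deletion confined to some cells cannot be told from one in the whole embryo. Some of the Hmx3 Hmx2 controls are marked WT (wild type) in their sample descriptions. What the other controls carry is not described. Nor do the labels say that libraries came from separate embryos, so p-values measure the spread between libraries, which may in part be technical.

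In a mature proximal tubule, sodium pumped out at the base of the cell drives solutes in across the brush border, and megalin and cubilin bring filtered protein in from the lumen. Amino acids cross through single-chain sodium carriers and through heteromers of a heavy and a light chain, and glucose made in the cell or taken from the lumen leaves through a basolateral carrier. Many of these genes switch on in the last days before birth and rise further afterwards, so their levels are commonly read as a sign of tubule maturation, and Hnf4a is needed for that step in mice.

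Libraries held 52286824 to 127339273 counted reads, and the 34 members took 0.455% to 0.661% of them. The lowest member count in any library was 204 reads. Levels are given as CPM (reads of a gene relative to its library's total, with totals scaled by the trimmed mean of M-values over the 24 libraries) and, between genes, as RPKM (CPM per kilobase of exon). Dmrt2 itself stood at 1.56 to 2.26 CPM in the Dmrt2 knockouts and 12.2 to 14.9 CPM in their controls. In the libraries labelled triple knockout Dmrt2 was not reduced, at 17.7 to 19.2 CPM against 10.7 to 12.1 CPM, while Hmx2 had 2 reads in all 3 libraries against 872 in the controls. These libraries therefore show no loss of Dmrt2 RNA in whole-gene counts. Such counts cannot tell an allele that leaves RNA from a wrong label. Reads of 4 Y-linked genes were seen in all 3 Dmrt2 controls but only 1 of 3 knockouts. Such reads were seen in 4 of 6 Hmx3 Hmx2 controls against 2 of 6 knockouts, and in 2 of 3 libraries on each side of the triple comparison. Markers of nephron progenitors, podocytes, stroma, endothelium and the other nephron segments were all present, as in a whole kidney, and adrenal and intestinal markers each summed to at most 6.94 CPM, while 8 liver markers summed to 106.5 to 232 CPM. In whole tissue, fewer cells of a type and less RNA per cell cannot be told apart.

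The members spanned a 201-fold range per length in the 12 control libraries, as the plot of RPKM by gene shows. Slc34a1, the main phosphate carrier of the brush border, was highest at 260 ± 27.3 RPKM (SD, n = 12), followed by Fbp1, fructose-1,6-bisphosphatase of gluconeogenesis, at 198 ± 30.0 RPKM and Ass1, argininosuccinate synthase, at 192 ± 35.8 RPKM. The ranges of these 3 genes overlapped, so their order is not firm. Only 5 members exceeded 100 RPKM, the other two being Kap and Gatm, and 11 stayed under 10 RPKM. The lowest were Cyp4b1, a cytochrome P450, at 1.96 ± 0.286 RPKM, Slc6a19, the main neutral amino acid carrier of the adult brush border, at 1.68 ± 0.353 RPKM, and Slc13a1, a sulfate carrier, at 1.29 ± 0.282 RPKM. Slc6a19 thus stood far under Slc6a18, its close relative and neighbour on chromosome 13, at 41.7 ± 6.77 RPKM, with no overlap between the 12 libraries of each. Between neighbours in the order, the control ranges failed to overlap only once, between Gatm (lowest library 86.9 RPKM) and Hnf4a (highest 79.5 RPKM).

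**Figure D1:**
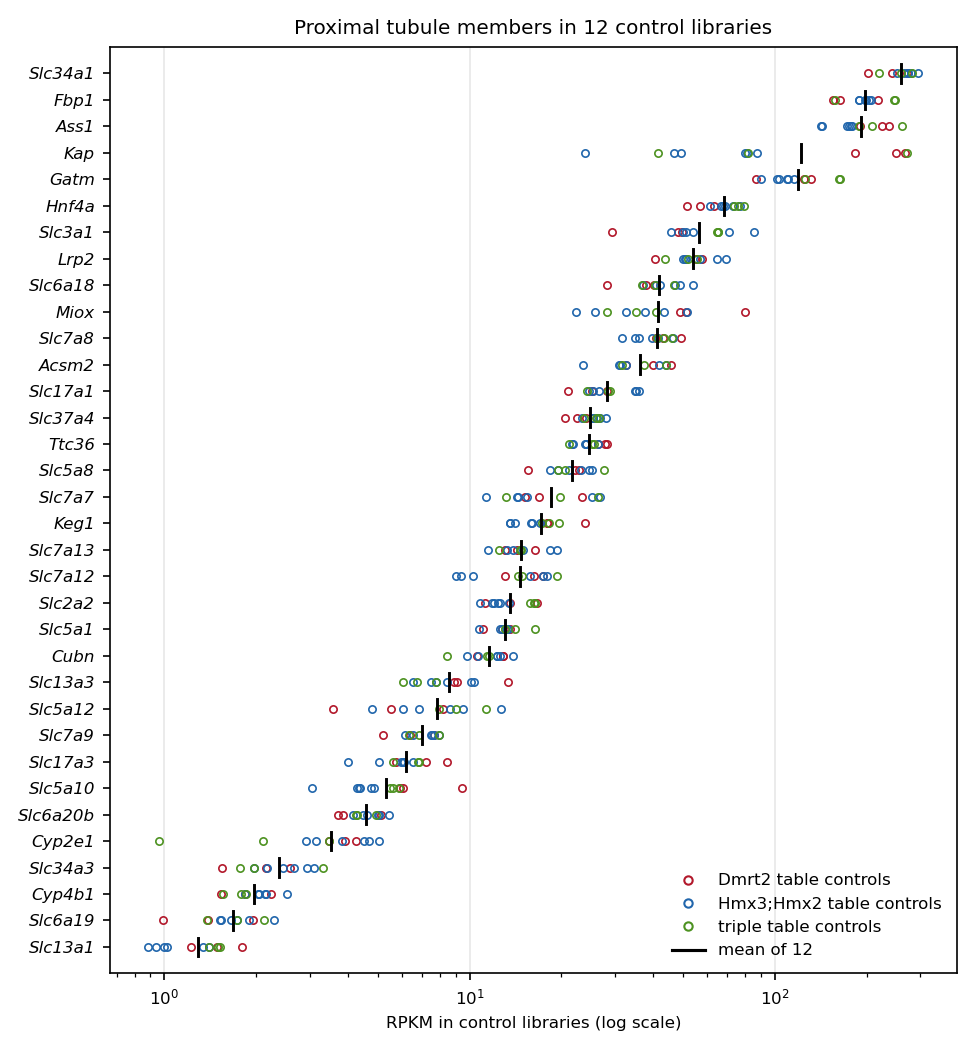
RPKM (log scale) of the 34 members in the 12 control libraries, coloured by the line whose deposited tables hold them, with a black tick at the mean of 12. Slc34a1 has the highest mean at 260 RPKM and Slc13a1 the lowest at 1.29 RPKM. Kap is spread most widely, from 23.99 to 271 RPKM.

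Members varied between libraries of the same group more than most genes did. The SD of log2 CPM within groups had a median of 0.20 over the 34 members and of 0.09 over the 12534 tested genes with a mean of at least 4.17 CPM, the lowest member mean. Kap, a secreted kidney protein gene known to respond to androgen, had the largest SD at 0.69, above 99.7% of those genes, and Cyp2e1, a cytochrome P450, followed at 0.45. Hnf4a was the steadiest member at 0.08. Controls of the 4 deposited tables also differed from each other: the highest table mean exceeded the lowest by more than 1.5 times for 10 of 34 members. The ratio was 5.83 for Kap, whose control mean ran from 28.3 CPM in Hmx3 Hmx2 replicates 4 to 6 to 165 CPM in the Dmrt2 line. Table and litter cannot be told apart here, so each knockout was fitted against controls of its own table. For Hmx3 Hmx2, ranges, medians and overlap of libraries pool both tables of the line. Such ranges are wider, and overlap likelier, where the tables differ, as for Kap.

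Upstream sequence was looked at for the members that the comparisons turn on. RefSeq's 250 bases before the gene start (GRCm38.p6) were at hand for 28 of the 34 members, and not for Ttc36, Slc5a12, Slc6a18, Slc13a1, Slc7a13 and Slc7a12. A TATA box (TATAAA, same strand as the gene) was found in 6 of the 28, or 21.4%, against 8.94% of 27025 mouse genes searched the same way. The 6 are Slc3a1, Slc37a4, Miox, Acsm2, Cyp2e1 and Kap, and in Kap and Cyp2e1 it starts 31 bases before the gene start. A gene counted when any of its listed starts had the box, and in Slc37a4 and Acsm2 not all of them did. Of the 6, Kap, Cyp2e1 and Acsm2 were low in Dmrt2 knockouts, while Slc3a1, Slc37a4 and Miox had higher means there than in controls. The Hnf4a motifs searched on both strands were rare: CAAAGTCCA was found in Slc3a1 alone (0.451% of all genes), and CAAAGGTCA (0.485%) in no member. A match is a run of letters and no proof of binding. The lines below show, 5′ to 3′ with motifs in capitals, 2 members with a TATA box that were low in Dmrt2 knockouts, the member with both motifs, and 2 members with neither, Fbp1 for its difference between lines and Slc2a2 for its call in the triple comparison.
Kap, chr6:133853668-133853917, minus strand: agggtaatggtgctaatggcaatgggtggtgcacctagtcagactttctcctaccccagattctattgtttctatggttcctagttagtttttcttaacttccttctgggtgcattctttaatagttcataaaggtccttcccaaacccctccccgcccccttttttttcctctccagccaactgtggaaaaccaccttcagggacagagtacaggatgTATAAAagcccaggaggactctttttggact
Cyp2e1, chr7:140763569-140763818, plus strand: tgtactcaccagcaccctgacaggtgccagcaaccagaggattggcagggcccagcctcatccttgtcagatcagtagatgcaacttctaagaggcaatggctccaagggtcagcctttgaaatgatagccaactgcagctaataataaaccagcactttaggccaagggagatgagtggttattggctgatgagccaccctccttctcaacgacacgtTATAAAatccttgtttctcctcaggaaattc
Slc3a1, chr17:85028097-85028346, plus strand: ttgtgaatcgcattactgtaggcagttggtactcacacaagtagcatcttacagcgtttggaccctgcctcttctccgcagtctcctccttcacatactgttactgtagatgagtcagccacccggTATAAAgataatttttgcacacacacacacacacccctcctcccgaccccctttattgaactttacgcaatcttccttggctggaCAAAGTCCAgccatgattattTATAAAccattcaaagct
Fbp1, chr13:62888283-62888532, minus strand: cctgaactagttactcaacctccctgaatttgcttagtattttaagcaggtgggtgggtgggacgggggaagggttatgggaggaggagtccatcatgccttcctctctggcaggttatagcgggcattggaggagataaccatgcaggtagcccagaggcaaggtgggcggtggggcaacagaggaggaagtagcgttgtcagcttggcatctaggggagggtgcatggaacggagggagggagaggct
Slc2a2, chr3:28697653-28697902, plus strand: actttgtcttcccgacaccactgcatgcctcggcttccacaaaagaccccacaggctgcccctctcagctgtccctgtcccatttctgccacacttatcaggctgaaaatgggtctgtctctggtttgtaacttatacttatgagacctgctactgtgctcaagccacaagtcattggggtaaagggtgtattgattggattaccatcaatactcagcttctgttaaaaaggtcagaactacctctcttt

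Knockouts were then set against control littermates of that line alone. All 34 members passed the filter on low counts in each comparison. A gene is said to be called when edgeR's quasi-likelihood test gave a Benjamini-Hochberg adjusted p under 0.05 over all genes tested. The list split evenly in direction: 17 of 34 members had a log2 fold change above 0 and 17 below 0 in each of the 3. The median member stood at -0.00 (log2) in the Dmrt2 knockouts, 0.00 in the Hmx3 Hmx2 knockouts and -0.01 in the libraries labelled triple knockout, beside -0.00, -0.01 and 0.00 over all genes. Summed over the 34 members, CPM overlapped between knockouts and controls in every line, for example 5407 to 5690 CPM in the libraries labelled triple knockout and 5234 to 6092 CPM in their controls. What differed was the spread around that median, which the heat map by library and the plot of fitted changes show.

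In the Hmx3 Hmx2 line no member passed the test. edgeR called 0 of 34, beside 0.021% of all genes, 0 members had an unadjusted p under 0.05 (4.93% of all genes did). With DESeq2 0 members were called, beside 0.0147% of all genes. Fitted changes ran from -0.15 to 0.18 on the log2 scale, with SE from 0.04 to 0.29. With both tables of this line pooled, knockout and control libraries overlapped for all 34 members, while 0.021% of all genes lay higher and 0.0577% lower without overlap. The effect did not differ detectably between the deposited tables of this line: edgeR called 0 members and 0 of 19050 genes for that difference, DESeq2 called 0 members (0.00586% of all genes), and for 1 member the unadjusted p was under 0.05 (2.12% of all genes).

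In the Dmrt2 line edgeR called 0 of 34 members as well, beside 0.444% of all genes. Here 6 members (17.6%) had an unadjusted p under 0.05, against 12.3% of all genes, and DESeq2 called 4 against 2.43% of all genes, with 1 higher (1.3% of all genes) and 3 lower (1.12%). Libraries of the groups did not overlap for 1 member higher in the knockouts (Slc7a8, 2.94% of members against 9.69% of all genes) and 5 lower (Fbp1, Acsm2, Cyp2e1, Kap and Ttc36, 14.7% against 7.71%). In the triple comparison edgeR called 2 of 34 members, Slc5a10 and Slc2a2, both higher, against 1.03% of all genes in either direction and 0.585% higher. There 14 members (41.2%) had an unadjusted p under 0.05, against 17.9% of all genes. DESeq2 called 11 against 5.93%, with 5 higher (3.4% of all genes) and 6 lower (2.54%). Groups did not overlap for 4 members higher in the libraries labelled triple knockout (11.8% against 11.6% of all genes) and 10 lower (29.4% against 12.9%).

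**Figure D2:**
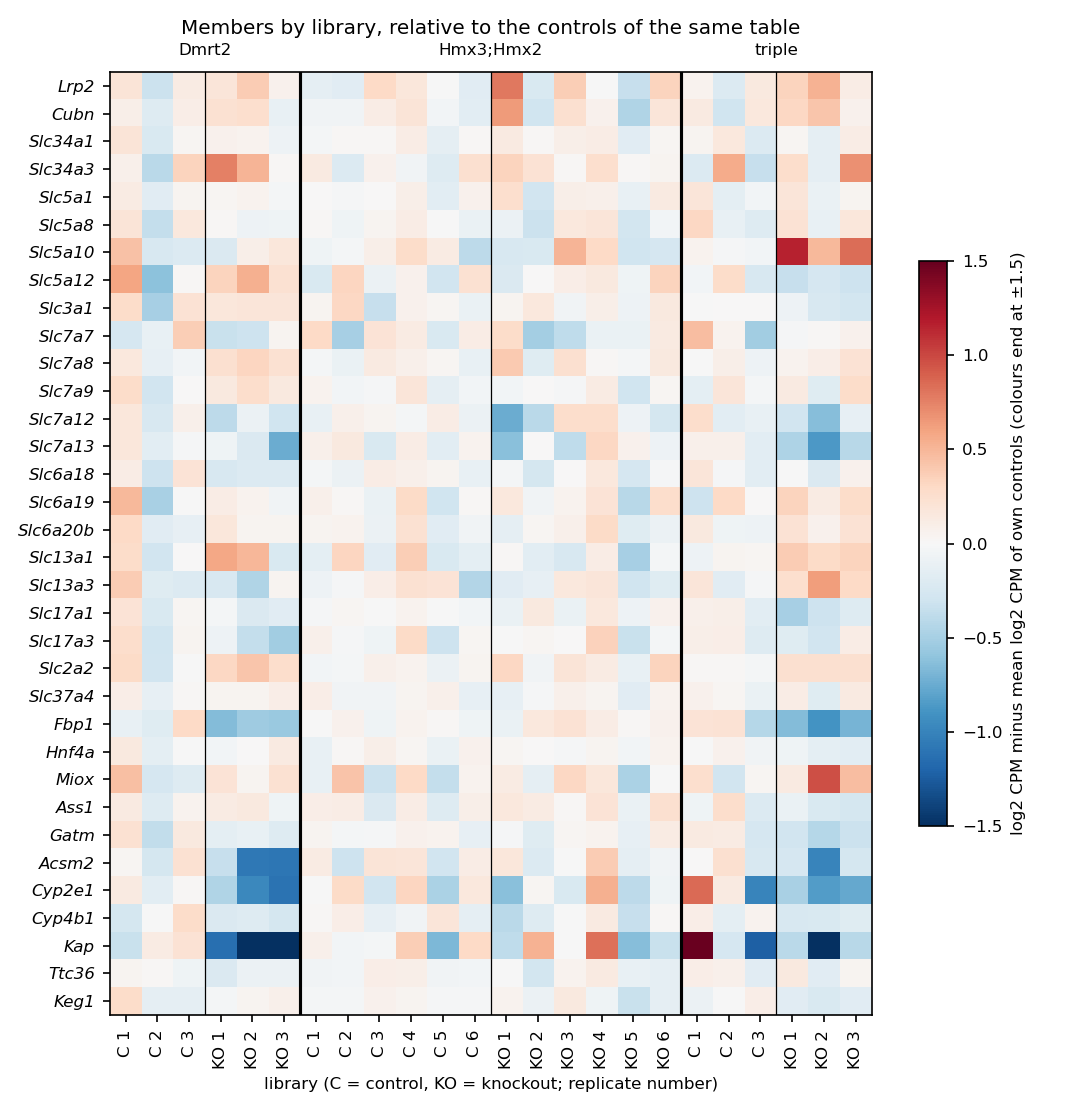
Each row is a member, ordered by role, and each column a library (C, control; KO, knockout). Colour gives log2 CPM minus the mean log2 CPM of the controls of the same table, with the scale ending at 1.5 in either direction. Kap, Cyp2e1, Acsm2 and Fbp1 are low in all 3 Dmrt2 knockouts, Slc5a10 is high in all 3 libraries labelled triple knockout, and the Hmx3 Hmx2 columns show no member low or high throughout.

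**Figure D3:**
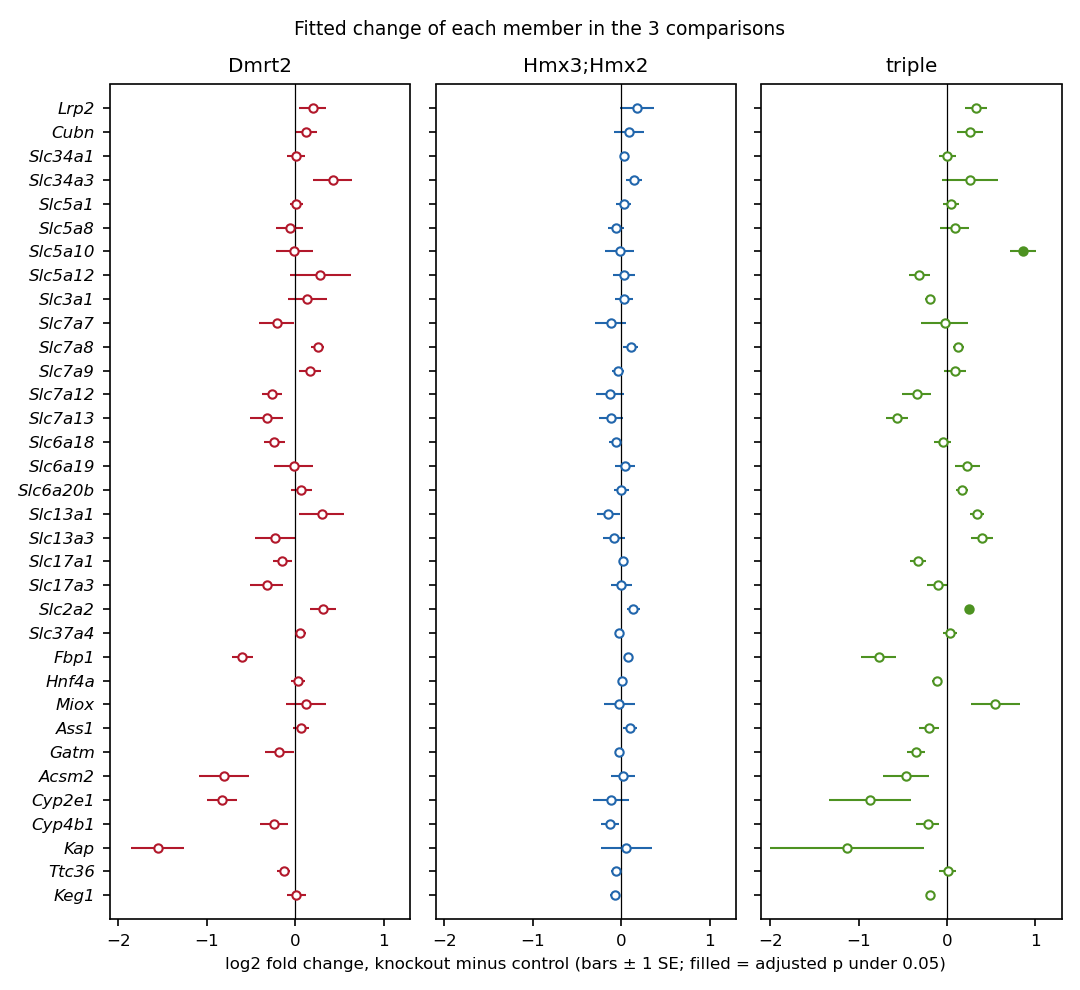
Fitted log2 fold change (knockout minus control) of each member with its SE in the Dmrt2, Hmx3 Hmx2 and triple comparisons. Filled points mark the members called by edgeR, Slc5a10 (0.85) and Slc2a2 (0.24) in the triple comparison. All Hmx3 Hmx2 points but that of Lrp2 (0.18) lie within 0.15 of 0.

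The receptors of protein uptake, Lrp2 (megalin) and Cubn (cubilin), were not called in any line. Lrp2 stood at 961, 1098 and 882 CPM in the Dmrt2 knockouts and 965, 678 and 923 CPM in controls. In the libraries labelled triple knockout it stood at 1053, 1200.5 and 909 CPM, against 868, 728 and 931 CPM, and in Hmx3 Hmx2 it ran from 752 to 1617 CPM (median 1079) in knockouts and from 833 to 1153 CPM (median 902) in controls. The groups overlapped in all 3 lines, and the largest fitted change was 0.33 ± 0.12 (log2, SE; adjusted p = 0.24) in the triple comparison. Cubn gave 210.0, 215 and 166 CPM against 192, 158 and 193 CPM in the Dmrt2 line and 192, 206 and 162 CPM against 170.0, 126 and 173 CPM in the triple comparison. In Hmx3 Hmx2 it ran from 119.6 to 298 CPM (median 178) in knockouts and from 147 to 207 CPM (median 184) in controls, where the library highest for Cubn, knockout replicate 1, was also the highest for Lrp2. Of the phosphate carriers, Slc34a1 had fitted changes near 0: 1157, 1148 and 1048 CPM against 1268, 942 and 1131 CPM in the Dmrt2 line, with a fitted change of 0.00 ± 0.10 (log2, SE). It gave 1203, 1072 and 1276 CPM against 1213, 1321 and 1027 CPM in the triple comparison, again 0.00 ± 0.10, and from 1138 to 1388 CPM (median 1329) in Hmx3 Hmx2 knockouts against from 1174 to 1384 CPM (median 1282) in controls. Slc34a3, the other sodium-phosphate carrier, stayed between 3.65 and 8.57 CPM in every library and was not called.

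Among sodium-coupled sugar and lactate carriers, Slc5a10, which carries mannose and fructose, rose in the libraries labelled triple knockout. It stood at 29.8, 18.7 and 23.8 CPM there and at 13.9, 13.2 and 12.997 CPM in the controls, so the lowest of the former lay above the highest of the latter. The means were 24.1 ± 5.54 CPM and 13.4 ± 0.453 CPM (SD, n = 3), a 1.81-fold difference (log2 fold change 0.85, SE 0.15, adjusted p = 0.043). In the Dmrt2 line it stood at 14.2, 17.5 and 18.5 CPM against 22.3, 13.96 and 14.3 CPM, with a fitted change of -0.01 ± 0.21, and in Hmx3 Hmx2 it ran from 7.69 to 15.03 CPM (median 8.99) in knockouts and from 7.21 to 11.5 CPM (median 10.3) in controls. The groups overlapped in both of those lines, but the triple effect was not shown to differ from either of the other effects (adjusted p = 0.32 against Dmrt2 and 0.17 against Hmx3 Hmx2). Slc5a10 (mm39, chromosome 11, 61563607 to 61611652, minus strand) shares 16.8% of its exonic bases with Fam83g and Grap on the other strand, and counting took no account of strand. Fam83g changed by 0.03 ± 0.10 and Grap by -0.38 ± 0.10 (adjusted p = 0.90 and 0.099) in the triple comparison. The call was lost when control 1, 2 or 3 or knockout replicate 3 was left out (adjusted p = 0.13, 0.19, 0.11 and 0.17) and in the fit of all 24 libraries (0.056), with the log2 fold change between 0.68 and 1.01 over the 6 fits with 1 library left out.

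Slc5a12, a lactate carrier, did not overlap in the opposite direction, at 29.9, 31.8 and 30.5 CPM in the libraries labelled triple knockout against 36.8, 45.9 and 32.2 CPM (log2 fold change -0.31, SE 0.12, adjusted p = 0.23). For the Dmrt2 line it overlapped, at 27.8, 31.9 and 25.9 CPM against 33.3, 14.5 and 22.5 CPM, as it did in Hmx3 Hmx2, from 22.6 to 43.8 CPM (median 32.6) in knockouts and from 19.4 to 51.3 CPM (median 31.3) in controls. Slc5a8, also a monocarboxylate carrier, and Slc5a1, a glucose carrier, overlapped in all 3 lines, with fitted changes from -0.06 to 0.09.

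The 6 heteromer members hold the heavy chain Slc3a1 and 5 light chains, and none was called. Slc3a1 was close to constant within the triple controls, at 147, 149 and 148 CPM, and stood under them in the libraries labelled triple knockout, at 139.8, 125 and 122.4 CPM (log2 fold change -0.19, SE 0.06, adjusted p = 0.12). In the Dmrt2 line it gave 105.6, 105.97 and 106.6 CPM against 113, 66.4 and 109 CPM, and in Hmx3 Hmx2 it ran from 105 to 175 CPM (median 137) in knockouts and from 104 to 194 CPM (median 119.5) in controls. Both of those lines overlapped, and Slc3a1 shares 26.5% of its exonic bases with Prepl, which changed by 0.02 ± 0.05 in the triple comparison. Slc7a13, a light chain that pairs with Slc3a1 in the late proximal tubule, stood at 21.6, 16.4 and 22.4 CPM in the libraries labelled triple knockout, all under the 31.4, 31.5 and 26.7 CPM of the controls. Its fitted change of -0.57 (SE 0.12) missed the threshold with an adjusted p of 0.072, and passed it with control 3 left out (0.040). For the Dmrt2 line Slc7a13 gave 29.8, 26.7 and 18.6 CPM against 35.2, 28.0 and 30.7 CPM and in Hmx3 Hmx2 from 24.3 to 37.6 CPM (median 28.8) in knockouts against from 24.6 to 41.4 CPM (median 30.8) in controls, with overlap in both.

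Slc7a12, a relative of Slc7a13, overlapped in the 3 lines. It gave 22.8, 17.9 and 25.6 CPM against 33.6, 25.1 and 25.9 CPM in the triple comparison and 20.5, 25.3 and 21.9 CPM against 30.3, 22.7 and 28.2 CPM in the Dmrt2 line. Over Hmx3 Hmx2 libraries it ran from 13.9 to 35.6 CPM (median 18.8) in knockouts and from 15.7 to 31.1 CPM (median 22.7) in controls. Slc7a8, a basolateral exchanger chain, was the only member whose Dmrt2 knockouts all lay above their controls, at 262, 276 and 258 CPM against 247, 204 and 216 CPM (log2 fold change 0.25, SE 0.07, adjusted p = 0.18). It overlapped in the triple comparison, at 225, 233 and 253 CPM against 217, 231 and 206 CPM, and in Hmx3 Hmx2, from 168 to 279.8 CPM (median 188) in knockouts and from 158 to 233 CPM (median 189) in controls. Slc7a7 and Slc7a9, the other light chains, changed by -0.21 to 0.17 over the 3 lines and overlapped throughout.

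The 3 sodium-coupled neutral amino acid carriers overlapped in each line, with fitted changes from -0.24 (Slc6a18 in the Dmrt2 line) to 0.23 (Slc6a19 in the triple comparison). Slc6a19 gave 7.52, 7.24 and 6.69 CPM against 9.77, 4.96 and 6.95 CPM in the Dmrt2 line and 10.8, 9.34 and 10.4 CPM against 6.92, 10.6 and 8.64 CPM in the triple comparison. In Hmx3 Hmx2 it ran from 7.01 to 11.3 CPM (median 8.85) in knockouts and from 7.63 to 11.4 CPM (median 8.47) in controls. The low level of this carrier was therefore shared by all 6 groups.

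The 4 anion carriers split in the triple comparison, and none was called. Slc13a1, the sulfate carrier, stood at 14.8, 13.9 and 14.3 CPM in the libraries labelled triple knockout, above the 10.8, 11.7 and 11.6 CPM of the controls (log2 fold change 0.34, SE 0.08, adjusted p = 0.076). Slc13a3, a dicarboxylate carrier, was likewise higher without overlap, at 42.2, 54.9 and 43.7 CPM against 40.5, 31.6 and 35.2 CPM (0.40, SE 0.13, adjusted p = 0.19). Slc17a1, an organic anion carrier, was lower without overlap, at 45.5, 51.6 and 56.1 CPM against 67.5, 68.2 and 57.5 CPM (-0.33, SE 0.09, adjusted p = 0.12), whereas Slc17a3, its neighbour on chromosome 13, overlapped. In the Dmrt2 line all 4 overlapped: Slc13a1 gave 17.1, 16.1 and 9.76 CPM against 13.9, 9.41 and 11.5 CPM, Slc13a3 45.2, 39.2 and 55.1 CPM against 69.7, 47.3 and 46.3 CPM, and Slc17a1 57.2, 50.1 and 52.0 CPM against 67.0, 49.8 and 59.6 CPM. In Hmx3 Hmx2 knockouts Slc13a1 ran from 5.65 to 8.80 CPM (median 7.79), Slc13a3 from 36.5 to 52.2 CPM (median 39.3) and Slc17a1 from 57.5 to 93.0 CPM (median 72.8). The matching controls ran from 6.84 to 10.8 CPM (median 7.78), from 34.1 to 54.1 CPM (median 42.3) and from 58.6 to 85.3 CPM (median 72.7), so these overlapped too.

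The 3 members of glucose output moved apart from each other. Slc2a2, the basolateral glucose carrier (mm39, chromosome 3, 28752052 to 28785508, plus strand), rose in the libraries labelled triple knockout. It stood at 109.7, 109 and 110.0 CPM there against 94.0, 94.1 and 90.8 CPM in the controls, or 109.7 ± 0.307 against 93.0 ± 1.86 CPM (SD, n = 3), a 1.18-fold difference (log2 fold change 0.24, SE 0.04, adjusted p = 0.030). The groups did not overlap, and the spread within them was unusually small beside the 97.2, 105 and 94.7 CPM and 96.1, 64.6 and 78.4 CPM of Dmrt2 knockouts and controls, which overlapped. Over Hmx3 Hmx2 libraries it ran from 61.5 to 91.3 CPM (median 78.0) in knockouts and from 62.3 to 77.4 CPM (median 70.3) in controls. The triple effect on Slc2a2 was not shown to differ from the Dmrt2 effect (adjusted p = 0.91) or the Hmx3 Hmx2 effect (0.83). The call was lost when any library but control 3 was left out (adjusted p = 0.069 to 0.13), although the log2 fold change stayed between 0.22 and 0.25, and with all 24 libraries in the fit (adjusted p = 0.26). It was also lost with Y-linked reads as a term (adjusted p = 0.052). Slc37a4, which carries glucose 6-phosphate to the site where glucose is released, changed by -0.02 to 0.06 in the 3 lines.

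Fbp1 (mm39, chromosome 13, 63012567 to 63036096, minus strand), the gluconeogenic enzyme, was low in both lines that target Dmrt2 by label. Dmrt2 knockouts gave 192, 208 and 204 CPM against 279, 265 and 371 CPM in controls, a 1.52-fold lower level that missed the threshold (log2 fold change -0.60, SE 0.12, adjusted p = 0.095). Libraries labelled triple knockout gave 229.7, 195 and 223 CPM against 418, 421 and 269 CPM, which was 1.71-fold lower (-0.77, SE 0.20, adjusted p = 0.17). Neither pair of groups overlapped, and control 3 of the triple comparison lay far nearer the knockouts than the other two controls did. Without that control the triple change was -0.96 (SE 0.07, adjusted p = 4e-05), and in the fit of all 24 libraries -0.78 (SE 0.14, adjusted p = 0.0058). In every other triple fit with 1 library left out Fbp1 was not called, with changes from -0.67 to -0.82 (adjusted p = 0.25 to 0.38). Hmx3 Hmx2 knockouts ran from 314 to 392 CPM (median 358) against from 321 to 351 CPM (median 337) in controls, with a fitted change of 0.08 ± 0.05. Differences between effects use the spread pooled over all 24 libraries, not that of the compared lines alone. So pooled, the SE for Fbp1 was 0.14 for the triple effect, against 0.20 alone, and 0.10 for Hmx3 Hmx2, against 0.05. The triple effect on Fbp1 differed from the Hmx3 Hmx2 effect by -0.86 (log2, SE 0.17, adjusted p = 0.017). Fbp1 was the only member among 34 called for that difference, beside 0.968% of all genes. For that difference 4 members had an unadjusted p under 0.05, against 13.3% of all genes, and DESeq2 called Fbp1 alone, against 3.48%. The difference was called with DESeq2 (adjusted p = 7.6e-06) and with Y-linked reads as a term (0.032). The Dmrt2 effect differed from the Hmx3 Hmx2 effect by -0.68 (SE 0.17), with an adjusted p of 0.16 in edgeR and 0.0023 in DESeq2. The Dmrt2 and triple effects on Fbp1 differed by -0.18 (SE 0.19, adjusted p = 0.79). For the other 33 members no difference between effects was called by edgeR: it called 0 of 34 for triple minus Dmrt2 (0.394% of all genes; 2 members had an unadjusted p under 0.05, against 11.4%, and DESeq2, which called 1.39% of all genes, called 0) and 0 of 34 for Dmrt2 minus Hmx3 Hmx2 (0.154%; 3 members against 7.67% of all genes, and DESeq2 called Fbp1 alone, against 0.548%).

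Hnf4a, the regulator on the list, gave 354, 332 and 329 CPM in the libraries labelled triple knockout, all just under the 366, 384 and 356 CPM of the controls (log2 fold change -0.12, SE 0.05, adjusted p = 0.27). It gave 268, 277 and 303.03 CPM against 305, 250.04 and 275 CPM in the Dmrt2 line. In Hmx3 Hmx2 it ran from 309 to 355 CPM (median 337) in knockouts and from 297.3 to 372 CPM (median 329) in controls. The largest fitted change of Hnf4a was thus the triple one, a level 1.09-fold lower.

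Of the 4 enzymes outside glucose output, Acsm2, a medium-chain acyl-CoA synthetase, did not overlap in either line that targets Dmrt2 by label. It gave 228, 137 and 136 CPM against 296, 241 and 339 CPM in the Dmrt2 line (-0.81, SE 0.28, adjusted p = 0.37) and 233, 139.6 and 231 CPM against 277, 327 and 234 CPM in the triple comparison (-0.47, SE 0.26, adjusted p = 0.42). The 3 lowest of those 6 knockout libraries, at 136 to 140 CPM, were the 3 without Y-linked reads, and the other 3 stood at 228 to 233 CPM. In the Hmx3 Hmx2 line Acsm2 ran from 195 to 321 CPM (median 262) in knockouts and from 175 to 326 CPM (median 237) in controls. With Y-linked reads as a term the Dmrt2 change of Acsm2 was -0.36, which sets knockout 1 alone against the controls. The triple change with that term was -0.51 ± 0.22, no smaller than without it. Triple control 1, also without Y-linked reads, stood at 277 CPM. Without Dmrt2 knockout 1 Acsm2 passed the threshold in that line (adjusted p = 0.041). Gatm, the first enzyme of creatine synthesis, was lower without overlap in the triple comparison, at 369, 335 and 358 CPM against 493, 489 and 376 CPM (-0.35, SE 0.10, adjusted p = 0.14). It overlapped in the Dmrt2 line, at 304, 312 and 295.4 CPM against 396, 261 and 375 CPM, and in Hmx3 Hmx2, from 270.5 to 343 CPM (median 314) in knockouts and from 269.9 to 347 CPM (median 319) in controls.

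Ass1 and Miox overlapped in all 3 lines. Ass1 gave 571, 577 and 501 CPM against 573, 458 and 544 CPM in the Dmrt2 line and 490.4, 449.6 and 437 CPM against 503, 629.8 and 456 CPM in the triple comparison. Over Hmx3 Hmx2 libraries it ran from 366 to 462 CPM (median 441) in knockouts and from 343 to 433 CPM (median 420.4) in controls. Miox, which starts the breakdown of inositol, had the largest uncalled increase, 0.55 ± 0.28 in the triple comparison (adjusted p = 0.39).

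The largest fitted decreases belonged to Kap and Cyp2e1. Kap (mm39, chromosome 6, 133826814 to 133830725, minus strand) gave 74.4, 39.5 and 54.1 CPM in Dmrt2 knockouts against 129, 177 and 189 CPM in controls, 2.94-fold lower without overlap (-1.56, SE 0.30, adjusted p = 0.19). Within the triple comparison it gave 52.1, 23.0 and 51.8 CPM against 192, 57.9 and 29.4 CPM, which overlapped, and the change went from -1.13 to -0.05 (log2) without control 1, the library at 192 CPM. In Hmx3 Hmx2 Kap ran from 17.3 to 83.8 CPM (median 46.4) in knockouts and from 17.0 to 61.7 CPM (median 45.8) in controls. Cyp2e1 gave 6.09, 4.25 and 3.87 CPM against 9.17, 7.47 and 8.42 CPM in the Dmrt2 line, 1.77-fold lower without overlap (-0.82, SE 0.17, adjusted p = 0.065), and passed the threshold without knockout replicate 1 (adjusted p = 0.014) but in none of the other 5 fits with 1 library left out (0.069 to 0.36). In the triple comparison it gave 2.94, 2.30 and 2.43 CPM against 7.45, 4.54 and 2.07 CPM, which overlapped only through control 3. Its triple change of -0.87 became -1.23 (SE 0.21, adjusted p = 0.014) without that control and -0.37 (SE 0.30, adjusted p = 0.57) without control 1. In Hmx3 Hmx2 it ran from 5.34 to 12.7 CPM (median 7.70) in knockouts and from 6.27 to 10.9 CPM (median 8.97) in controls. All 3 Dmrt2 controls held Y-linked reads and 2 of the 3 knockouts did not. With those reads as a term, the fitted change in the Dmrt2 line sets knockout 1 alone against the controls. It was -1.14 (log2) for Kap, -0.45 for Cyp2e1 and -0.66 for Fbp1, and resting on 1 library it is given without a test.

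Cyp4b1, Keg1 and Ttc36 were not called in any line. Cyp4b1 gave 3.28, 3.31 and 3.42 CPM against 4.17, 3.503 and 4.02 CPM in the triple comparison, lower without overlap (-0.22, SE 0.13, adjusted p = 0.41), and 3.59, 3.64 and 3.47 CPM against 3.47, 4.15 and 5.05 CPM in the Dmrt2 line. Over Hmx3 Hmx2 libraries it ran from 3.39 to 5.52 CPM (median 4.23) in knockouts and from 4.15 to 5.71 CPM (median 4.70) in controls. Keg1, a kidney gene of the glycine acyltransferase family, was also lower without overlap in the triple comparison, at 92.4, 88.8 and 92.5 CPM against 98.1, 103 and 111 CPM (-0.19, SE 0.05, adjusted p = 0.12). It gave 110.0, 115.6 and 118 CPM against 136, 102 and 102 CPM in the Dmrt2 line, and in Hmx3 Hmx2 from 61.5 to 102 CPM (median 80.8) in knockouts and from 76.6 to 96.4 CPM (median 84.9) in controls. Ttc36 gave 21.6, 23.7 and 23.8 CPM against 26.0, 25.4 and 24.1 CPM in the Dmrt2 line, lower without overlap (-0.13, SE 0.07, adjusted p = 0.50). It overlapped in the triple comparison, at 24.2, 19.4 and 22.5 CPM against 23.4, 23.1 and 19.4 CPM, and in Hmx3 Hmx2, from 17.1 to 24.98 CPM (median 20.8) in knockouts and from 19.9 to 24.1 CPM (median 22.0) in controls.

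**Figure D4:**
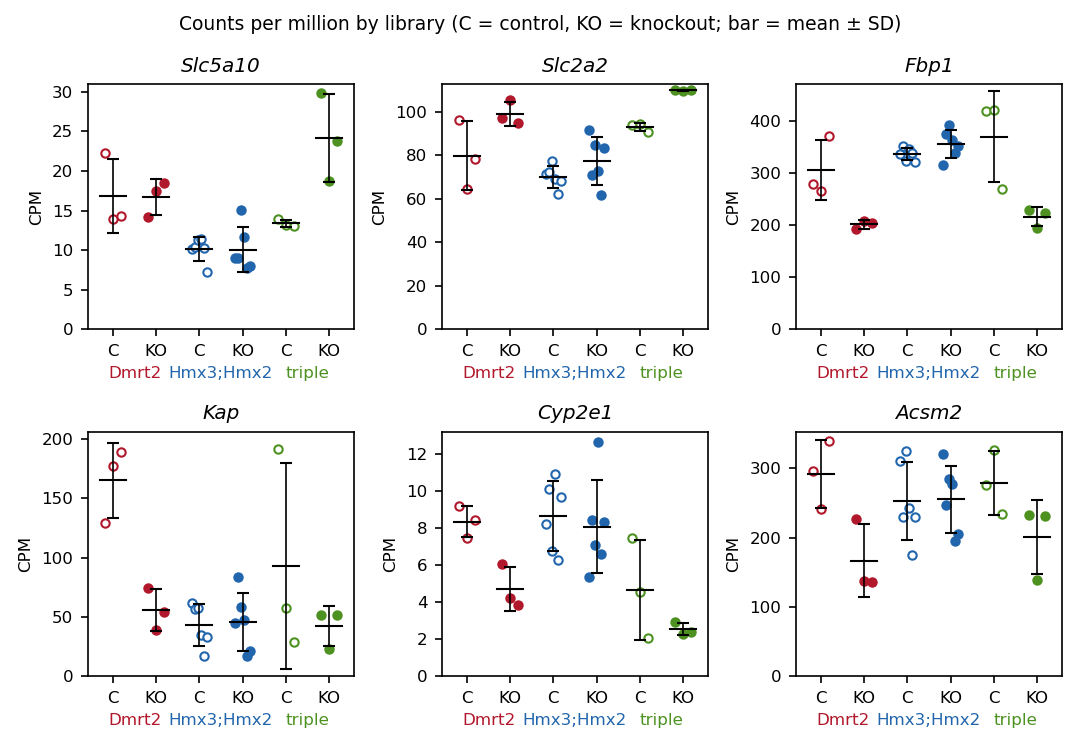
CPM of 6 members in every library (open, control; filled, knockout), with bars for mean and SD. Slc5a10 and Slc2a2 are higher in the libraries labelled triple knockout than in all their controls, Fbp1 is lower in the Dmrt2 knockouts and in the libraries labelled triple knockout, and Kap, Cyp2e1 and Acsm2 are lower in the Dmrt2 knockouts.

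Triple control 3 stood on the knockout side for several of these genes. Without it edgeR called 7 members in that comparison in place of 2, namely Slc5a12, Gatm, Slc7a13, Cyp2e1, Slc17a1 and Fbp1 lower and Slc2a2 higher, and 438 genes in place of 222. Why this library stood apart was not tested. In the Dmrt2 line, where 0 members were called, leaving out control 1 brought Slc7a8, Slc2a2 and Miox past the threshold, all higher. Leaving out control 2 did so for Slc6a18, Fbp1 and Gatm, control 3 for Fbp1, and knockout 1 for Acsm2 and Cyp2e1, all lower. Genes called numbered 88 in the main fit, 195 without control 1, 92 without control 2, 53 without control 3 and 68 without knockout 1.

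Other genes of the proximal tubule were followed on 2 lists chosen beside the members. Of 24 other transporters and brush border genes edgeR called 0 in the Dmrt2 line, against 0.444% of all genes. There 5 had an unadjusted p under 0.05 (20.8%, against 12.3% of all genes). DESeq2 called 5 of the 24 lower (1.12% of all genes), and 5 were lower without overlap and none higher (20.8%, against 7.71% of all genes lower). Within the triple comparison edgeR called 1, against 1.03% of all genes. The gene was Cltrn, which helps carriers such as Slc6a19 reach the membrane. It gave 86.96, 75.8 and 92.3 against 133, 132 and 113.6 CPM, 1.48-fold lower (adjusted p = 0.026). Of the 24 in the triple comparison, 4 had an unadjusted p under 0.05 (16.7%, against 17.9% of all genes). DESeq2 called 1 higher (3.4% of all genes) and 2 lower (2.54%). Without overlap, 1 was higher (4.17%, against 11.6% of all genes) and 3 were lower (12.5%, against 12.9%). Of 18 other metabolic genes 17 were tested in the Dmrt2 line and 1 was called, against 0.444% of all genes. It was Pck1, which acts ahead of Fbp1 in gluconeogenesis. Pck1 gave 85.4, 58.7 and 84.4 CPM in Dmrt2 knockouts against 242, 202 and 248 CPM in controls. That was 3.03-fold lower (log2 fold change -1.60, SE 0.17, adjusted p = 0.040). Fits with 1 library left out were examined by gene for the members only. Whether the calls of Pck1, Cltrn and the other genes of these 2 lists hold in them is not known. Calls in the Dmrt2 line fell from 88 to 26 without knockout 2, and in the triple comparison from 222 to 20 without knockout 3. Differences between effects were not fitted with a library left out. Without overlap, 8 of the 18 were lower (44.4%, against 7.71% of all genes) and 1 higher (5.56%, against 9.69%). DESeq2 called 6 lower (1.12% of all genes) and 1 higher (1.3%) in the Dmrt2 line. Of the 17 tested, 8 had an unadjusted p under 0.05 (47.1%, against 12.3% of all genes). In the triple comparison Pck1 gave 133, 84.3 and 85.9 CPM against 298, 252 and 112.3 CPM (-1.12, SE 0.46, adjusted p = 0.32), and in Hmx3 Hmx2 it ran from 136 to 404 CPM (median 204) in knockouts and from 138 to 243 CPM (median 182) in controls. G6pc, which releases glucose at the last step, was 2.07-fold lower in Dmrt2 knockouts and 1.90-fold lower in the libraries labelled triple knockout, with an adjusted p of 0.11 in each. Its triple effect differed from the Hmx3 Hmx2 effect by -1.17 (SE 0.26, adjusted p = 0.038).

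In the triple comparison 2 of 18 metabolic genes were called, both lower, against 1.03% of all genes in either direction. Of the 18, 8 had an unadjusted p under 0.05 (44.4%, against 17.9% of all genes). DESeq2 called 1 higher (3.4% of all genes) and 7 lower (2.54%). Without overlap, 1 was higher (5.56%, against 11.6% of all genes) and 5 were lower (27.8%, against 12.9%). Cyp24a1, which inactivates vitamin D, gave 30.1, 28.0 and 27.0 CPM against 52.8, 65.7 and 60.1 CPM (-1.07, SE 0.08, adjusted p = 0.00026), and Gldc, of glycine breakdown, 21.9, 19.6 and 19.9 CPM against 28.4, 37.5 and 30.4 CPM (-0.65, SE 0.10, adjusted p = 0.023). Differences between effects rest on the spread pooled over all 24 libraries, wide in some lines and narrow in others. Cyp27b1, which activates vitamin D, was not called within a line but differed between effects. It gave 9.72, 9.45 and 8.37 CPM against 43.9, 91.9 and 146 CPM in the Dmrt2 line and 13.9, 13.4 and 10.8 CPM against 193, 196 and 54.3 CPM in the triple comparison. In Hmx3 Hmx2 it ran from 119 to 181 CPM (median 144) in knockouts and from 99.5 to 177 CPM (median 123) in controls, and the Dmrt2 and triple effects lay under the Hmx3 Hmx2 effect by -3.53 (adjusted p = 0.0037) and -3.71 (adjusted p = 0.0016). Other genes of these lists called for a difference were Anpep, a brush border peptidase (triple minus Hmx3 Hmx2, -1.53, adjusted p = 0.020), Gldc (-0.81 for the same difference, 0.0073), Pck1 (Dmrt2 minus Hmx3 Hmx2, -1.86, 0.046) and Cpt1a, of fatty acid oxidation (triple minus Dmrt2, -0.39, 0.046). In Hmx3 Hmx2 neither tool called a gene of the 2 lists, with 2 of 24 and 0 of 17 at an unadjusted p under 0.05, against 4.93% of all genes, of which edgeR called 0.021%.

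Marker sums of other cell types also separated some groups, and their part in these results was not tested. For the Dmrt2 line 5 principal cell markers summed to 497 to 543 CPM in knockouts and 568 to 826 CPM in controls, 8 liver markers to 106.5 to 143 against 162 to 205 CPM, and 4 endothelial markers to 736 to 751 against 680 to 730 CPM. By gene, 1 principal cell marker had a log2 fold change above 0 and 4 below. Of 6 liver markers tested, 5 were below 0 and 1 was above, and edgeR called that 1 higher. All 4 endothelial markers were above 0. Within the triple comparison 5 podocyte markers summed to 1301 to 1321 CPM in the libraries labelled knockout and 1385 to 1464 CPM in controls. There 4 distal convoluted tubule markers gave 271 to 298 against 299 to 414 CPM, 5 principal cell markers 416 to 525 against 537 to 605 CPM, and 5 macrophage markers 69.7 to 77.6 against 80.4 to 106.6 CPM. By gene, 2 podocyte markers had a log2 fold change above 0 and 3 below, and 2 distal convoluted tubule markers above and 2 below. Principal cell and macrophage markers each had 1 above and 4 below. Every marker of these lists had reads in each of the 4 groups. The 4 intestinal markers gave 2.63 to 2.69 against 1.46 to 1.92 CPM in the triple comparison, with 1 of them without reads in the controls. Of the 2 tested, 1 had a log2 fold change above 0 and 1 below. The other 24 proximal tubule transporters and brush border genes summed lower without overlap in both lines, at 4425 to 4804 against 4832 to 5852 CPM for Dmrt2 and 4453 to 5047 against 5068 to 6829 CPM for the triple comparison, whereas the sum of the 34 members overlapped in each. Such a sum follows its most abundant genes: in the Dmrt2 line 13 of the 24 had a log2 fold change above 0 and 11 below. In the triple comparison 7 were above 0 and 17 below, with medians of 0.01 for Dmrt2 and -0.08 for triple. The other metabolic genes summed lower without overlap in the Dmrt2 line, at 1891 to 1919 against 2168 to 2588 CPM, and overlapped in the triple comparison, at 1798 to 2063 against 2037 to 2753 CPM.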

How the data were processed

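RNA of whole embryonic kidneys was sequenced after poly(A) selection with 150 bp reads in 24 libraries, per the labels' protocols. The authors deposited raw read counts by gene, not normalized, as 4 tables, of which 2 belong to Hmx3 Hmx2, split into replicates 1 to 3 and replicates 4 to 6. The submitters' processing notes list fastp 0.20.1, STAR 2.7.0e, featureCounts 2.0.1 and the mm39 build, but the version of featureCounts in the headers is 2.0.3. Counting, per the file headers, ran over GENCODE exons grouped under gene names with no strand option, and both reads of a pair were counted, so a count is a read and not a fragment. Left out were 2 columns without a matching sample. Groups and replicate numbers come from the sample titles.

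Tests used edgeR 4.0.16 in R 4.3.3 on the counts as deposited: TMM scaling, filterByExpr with a minimum count of 10 and a total of 15, the robust quasi-likelihood test, and Benjamini-Hochberg adjustment over all genes tested, with a threshold of 0.05. Each knockout was set against controls of its own line, with the table as a term for Hmx3 Hmx2. Differences between effects came from 1 joint model of the 24 libraries that also held a table term, and no control is shared between effects. This model takes the spread of a gene from all 24 libraries, so its p-values do not measure the spread of the compared lines alone. Each SE was taken as the size of the log2 fold change over the root of F. CPM and RPKM were computed from the deposited counts. The alternatives were DESeq2 1.42.0, RLE scaling, no filter, a minimum mean of 1 CPM, counts halved, the replicate number as a block, Y-linked reads (at least 1000 in a library) as a term, a fit of all libraries, and each library left out. The scripts were tested on simulated data. Pairs of libraries within a group and table (24 in all) had a chi-square per degree of freedom of 5.23 to 27.0, beyond sampling noise. None was therefore treated as a copy of another, but this cannot show that they came from separate embryos, as library preparation also adds spread.

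The 34 members and the other gene lists were chosen with earlier results of these data known. All members are accounted for. Values by library are given for members called in a comparison or a difference of effects, for those whose groups do not overlap in a comparison, for the 3 highest and 3 lowest in RPKM, and for Lrp2, Cubn, Slc34a1, Hnf4a, Kap, Slc7a12 and Slc7a13. Of the other proximal tubule lists, the called genes are named and the rest counted, and G6pc and Cyp27b1 are named for a called difference. Miox was named after its values were seen. Promoters are RefSeq's for GRCm38.p6, whose coordinates do not apply to mm39. Reads carry no molecular identifiers, so read numbers overstate independent molecules. A list of regulators is not reported here.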

Additional observations from a re-analysis of the deposited data

Results flagged for a closer look

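Fbp1 stood out for a difference between lines. Its triple effect lay under its Hmx3 Hmx2 effect by -0.86 (log2, SE 0.17). The adjusted p was 0.017 in edgeR's quasi-likelihood test, with the spread pooled over all 24 libraries. All 3 libraries labelled triple knockout were lower than all 3 of their controls, while the 6 Hmx3 Hmx2 knockouts overlapped their controls.

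In groups of 6 libraries, a library was picked out when its gap to the nearest other exceeded Dixon's 95% critical share of the group's range. Of 68 such tests of a member in the Hmx3 Hmx2 groups, 3 were picked out, which is no more than the 1 in 20 that chance gives. The rule takes no account of the 6 libraries coming from both deposited tables. Slc7a7, a basolateral light chain, was highest in knockout replicate 1 at 87.5 CPM, with the next library at 55.6 and the lowest at 40.9 CPM. That library lay inside the range of the controls of its own table, 51.1 to 88.6 CPM. Controls of the other table ran from 37.6 to 47.7 CPM. Slc5a1, a glucose carrier, was lowest in control replicate 5 at 44.1 CPM, with the next at 51.7 and the highest at 54.7 CPM. Slc5a10 was lowest in control replicate 6 at 7.21 CPM, with the next at 10.1 and the highest at 11.5 CPM.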

How the results depend on the processing

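Of 2176 fitted member changes under the alternatives, none that was called reversed; 47 passed the threshold where the main value had not, 13 lost it, and 137 uncalled ones changed sign, all from values within 0.14 of 0. DESeq2 called more genes: 417 (4 members) in the Dmrt2 line against 88 (0), 1034 (11) in the triple comparison against 222 (2), 257 for triple minus Dmrt2 against 87, 566 for triple minus Hmx3 Hmx2 against 214, 105 (1, Fbp1) for Dmrt2 minus Hmx3 Hmx2 against 34, and 2 for the difference between the Hmx3 Hmx2 tables against 0. With no filter on low counts the numbers were 676 (4) and 1510 (13). With Y-linked reads as a term the Dmrt2 effect rests on knockout 1 alone, so the number called in that fit is not given. The fit of all 24 libraries gave 573 (1, Fbp1) in the triple comparison. In Hmx3 Hmx2, 2 genes were called in place of 4 with a minimum mean of 1 CPM, in replicates 1 to 3 alone and in replicates 4 to 6 alone. With 1 library left out, counts ran from 26 to 195 (0 to 3 members) in the Dmrt2 line, from 20 to 438 (0 to 7) in the triple comparison and at 4 (0) in Hmx3 Hmx2. Counts moved by over 1.5 times without Dmrt2 knockout 2 (26), control 1 (195) or control 3 (53), and without triple knockout 2 (96) or 3 (20) or control 1 (145), 2 (84) or 3 (438). The cause of these shifts was not tested.

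Replicate numbers are shared between groups, but deviations of same-numbered libraries correlated at only 0.01 to 0.05 in the Dmrt2 line, 0.01 to 0.13 in Hmx3 Hmx2 and -0.14 to -0.01 in the triple comparison, so the numbers were not taken as pairs. With the replicate number as a block, edgeR called 80 genes (1 member, Cyp2e1) in the Dmrt2 line, 5 (0) in Hmx3 Hmx2 and 51 (1, Slc5a10) in the triple comparison. Not every library correlated best with its own number: 2 of 3 Dmrt2, 3 of 6 Hmx3 Hmx2 and 0 of 3 triple knockouts did.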

Other observations

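Levels of 2 members were set beside Y-linked reads in the Hmx3 Hmx2 line, where 6 libraries held such reads and 6 did not. Acsm2, the acyl-CoA synthetase, ran from 230.5 to 326 CPM (median 294) in the libraries with Y-linked reads and from 175 to 285 CPM (median 218) in those without. Over all 24 libraries it ran from 228 to 339 CPM (median 260.3) in the 14 with Y-linked reads and from 136 to 285 CPM (median 200.4) in the 10 without. Knockouts are not evenly split between these sets. In the Dmrt2 line 1 of 3 knockouts held Y-linked reads against 3 of 3 controls, and in Hmx3 Hmx2 2 of 6 against 4 of 6. Genotype and Y-linked reads are thus partly mixed here. Kap, which responds to androgen in the adult kidney, overlapped more widely in the Hmx3 Hmx2 line, from 33.1 to 61.7 CPM (median 46.4) with Y-linked reads and from 17.0 to 83.8 CPM (median 39.1) without. These are descriptions, chosen after the values were seen, and no test was made of either.

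The 5 members with the most reads in all (Slc34a1, Lrp2, Ass1, Hnf4a and Gatm) held 55.9% to 63.5% of the members' reads in every library, so a summed level of the list follows mainly these 5. On the chromosomes of the targeted genes, the nearest members were Cyp2e1 at 9.19 Mb from Hmx2 and Acsm2 at 11.99 Mb from Hmx3 on chromosome 7, and Keg1 at 12.98 Mb from Dmrt2 on chromosome 19.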
